A study of Homo sapiens with 16 samples.

Results

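The nuclear genes of oxidative phosphorylation encode most subunits of the 5 complexes of the inner mitochondrial membrane, and their N6-methyladenosine (m6A) signal is described here in a glioma line. The genes were chosen by symbol: protein-coding genes whose names begin with NDUFA, NDUFB, NDUFC, NDUFS or NDUFV (complex I), UQCR (complex III), COX4 to COX8 (complex IV) or ATP5F, ATP5M or ATP5P (complex V), with SDHA to SDHD (complex II) and CYC1 (complex III), and without the NDUFAF assembly factors. The rule found 88 entries, of which 2 were readthrough entries that join a member to a neighbour, ATP5MF-PTCD1 and NDUFC2-KCTD14, and 86 were single genes. A strand was known for 78 of the 86: 69 from RefSeq and 9 from the strand of their called bases. Of these, 68 had a called base in at least 1 library, out of 13140 genes with a called base in all, and 62 had enough signal for the test over whole genes; the 6 that did not were ATP5MC2, NDUFA5, NDUFA9, NDUFB2, NDUFS7 and UQCRC1. The 10 genes with a strand and no called base were ATP5F1C, COX4I1, COX6A2, COX6B2, COX7B2, COX8C, NDUFA12, NDUFB3, NDUFS3 and UQCRC2. A gene without a called base may still be expressed.

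The study mapped m6A by eCLIP in U87 MG, an established human glioma line, and in U87-R, its derivative resistant to the alkylating drug temozolomide (TMZ). U87-R was kept in medium with 50 µM TMZ, so resistance and the drug itself cannot be told apart in U87-R against U87. The 3 U87 and 3 U87-R libraries carried the label of a DMSO control, and 2 further libraries came from U87-R given STM2457, which inhibits METTL3, the enzyme that places most m6A in messenger RNA, at 50 µM for 96 hours. The labels do not say whether replicates came from separate cultures or whether U87-R is 1 clone, so p-values measure only how these libraries vary, which may be technical variation. The 8 input libraries were not analysed here, and whether the deposited score is already set against input is not known, so a change in methylation and a change in RNA abundance cannot be told apart.

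The file of each library lists called bases by position and strand, with a score that has no unit. A gene's value in a library was the sum of the scores of its called bases, and 0 means that none was called. The lists give no read depth. All genes together summed to between 2409118 and 3309591 in the 6 untreated libraries and to 1744750 and 1812923 in the 2 treated ones, and replicate 2 of U87 and of U87-R stood apart from the other untreated libraries on the third principal component. Of 8 markers of a glioma or mesenchymal line, 6 were called in every library and GFAP and S100B in none. Their summed scores were 7087 to 7466 in U87, 7797 to 8356 in U87-R and 2926 to 3031 with STM2457. Of 9 markers of other cell types, 6 were called in no library, and the sums of the list were between 2.77 and 49.1. PECAM1 was called in every library, with means of 7.62 in U87, 25.5 in U87-R and 10.8 with STM2457. RBFOX3 and MBP were called in 2 libraries each.

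Oxidative phosphorylation passes electrons from NADH through complex I, or from succinate through complex II, to ubiquinone, and then through complexes III and IV to oxygen. Complexes I, III and IV pump protons, and complex V uses the proton gradient to make ATP. In most messenger RNAs METTL3 places m6A inside the transcript, most densely around the stop codon and along the last exon, in a sequence where the methylated A is followed by C. Where the nucleotide next to the cap is an adenosine it can carry a related mark, m6Am, which is placed by PCIF1 and is bound by m6A antibodies too. eCLIP of polyA RNA with such an antibody does not separate these marks by itself.

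In many of these genes strong called bases lay at or close to the annotated start. Others were far from it: a base of UQCR10, a small subunit of complex III, 2509 nt from the 5′ end had a mean score of 91.0 in U87 and 93.3 in U87-R. The sequences below show the highest-scoring base within 50 nt of the 5′ end in 12 genes, picked from those whose score in this zone was called higher with STM2457, in order of that score, and among those with a RefSeq promoter entry. Sequences are from RefSeq on GRCh38.p14, 5′ to 3′ on the strand of the gene, with the called base in capitals and up to 10 bases on each side. They show that the called base is an A or a C followed by A. The annotated start is not marked. It lies outside the window in UQCR11, NDUFS1, NDUFS8 and COX7B, whose bases are 28, 21, 31 and 12 nt from it.
COX6A1: gcgctgcggcAgtccagatca (chr12:120438103-120438123, plus strand)
UQCR11: ggacagggtcAtcctgagggt (chr19:1605424-1605444, minus strand)
NDUFA13: gaagtgtgggAtactgcgagt (chr19:19516218-19516238, plus strand)
NDUFS6: gccagcggcgCaaaatggcgg (chr5:1801404-1801424, plus strand)
NDUFS1: aggccgccatAttgaataagc (chr2:206159413-206159433, minus strand)
NDUFA2: cagaccggagCacttggcctg (chr5:140647619-140647639, minus strand)
NDUFS8: cttggcaaggCaagtagcggc (chr11:68030702-68030722, plus strand)
COX7B: ttttcagctcActtcaagggt (chrX:77899470-77899490, plus strand)
COX5B: tgttcccggaAgttttgctgc (chr2:97646052-97646072, plus strand)
NDUFA8: ccggatgcgcAtgcgcaggcg (chr9:122159769-122159789, minus strand)
SDHB: gggctgacgtCaggagccaag (chr1:17054020-17054040, minus strand)
COX7C: ctttcttttcAgtccttgcgc (chr5:86617937-86617957, plus strand)

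In COX6A1, a nuclear subunit of complex IV, the called base is the annotated start itself. It scored 79.8, 80.9 and 95.2 in the U87 libraries, 89.9, 90.8 and 85.8 in U87-R, then 127 and 128 with STM2457. In UQCR11, a small subunit of complex III, the base 28 nt from the start scored 72.3, 66.0 and 55.7 in U87, 67.0, 76.8 and 64.8 in U87-R, then 122 and 119 with STM2457. In NDUFA13, an accessory subunit of complex I, the base 3 nt from the start scored 48.2, 43.6 and 51.6, then 53.6, 55.1 and 56.6, then 106 and 110. The base of NDUFS6, an accessory subunit of complex I, lies 7 nt from the start and scored 45.5 ± 4.54 (SD, n = 3), 43.3 ± 3.66 (SD, n = 3) and 91.9 ± 4.33 (SD, n = 2). In all 12 genes both treated scores lay above the 6 untreated ones, which follows in part from how the genes were picked.

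The letter under the strongest base could be read for 48 members in the treated libraries, within 50 nt of any annotated start. It was A in 30 (62.5%), C in 11, T in 6 and G in 1, and all 11 of the C were followed by A. Over all 6046 genes with such a base it was A in 75.4% and C in 13.2%, and 93.7% of these C were followed by A. For comparison, A made up 20.5% of the first 50 bases after the 35116 annotated starts of the promoter table. Of the 30 members with an A, 4 (13.3%) had C as the next base. Over all genes the next base was C in 13.5% of such A, against 21.3% of every A in those first 50 bases. The strongest base lay within 5 nt of an annotated start in 22 of the 48 members (45.8%), against 56.5% of all genes. The annotated start is itself an A in 41.7% of the 48 members and in 58.1% of the 6046 genes. The letters describe this window, and were tested for nothing.

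Most of the score of these genes came from the first 50 nt. No test was run on this share. Of their summed score, 63.8%, 61.5% and 59.6% lay within 50 nt of the annotated 5′ end in the U87 libraries, 58.4%, 65.9% and 60.8% in U87-R, then 70.9% and 70.8% with STM2457. All genes together had between 6.61% and 7.74% in U87, between 7.26% and 9.16% in U87-R, then 23.2% and 22.4% with STM2457. The treated libraries were above every untreated one in both sets. The rise was larger in points over all genes than among the members, which began far higher. Members with more than 50% of their sum in this zone numbered 36 of the 57 called in U87, 38 of 57 in U87-R and 47 of 66 with STM2457, or 71.2% of the last, against 10%, 11.2% and 25.5% of all genes. Counting 50 nt on either side of any annotated start raised the members' share to 71.2 ± 2.35% (SD, n = 3), 72.8 ± 4.31% (SD, n = 3) and 80.8 ± 0.141% (SD, n = 2).

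**Figure D1:**
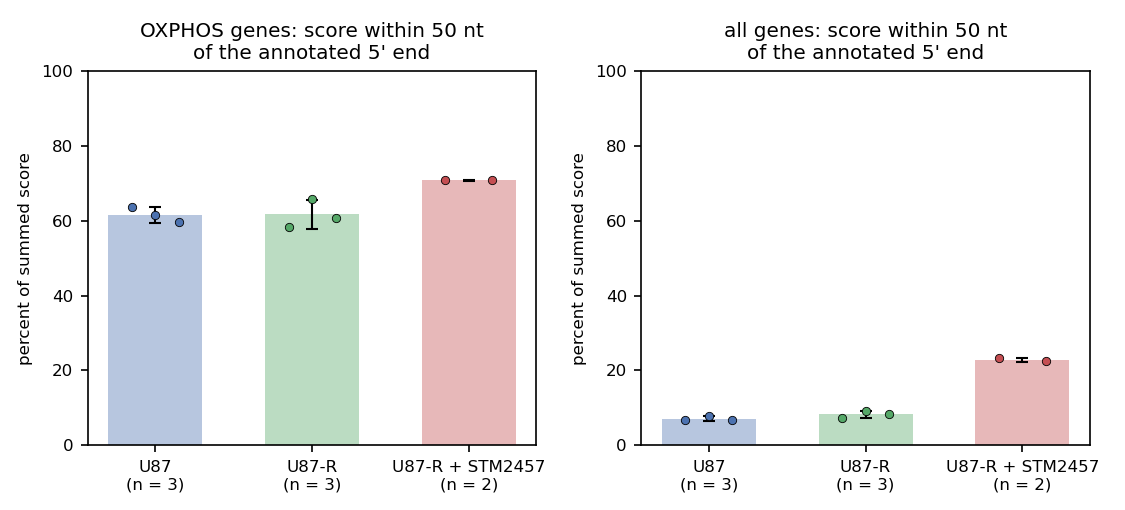
Percent of the summed m6A score that lay within 50 nt of the annotated 5′ end (y axis), for the nuclear OXPHOS genes (left) and all genes (right), by group. Bars are means, error bars are SD and points are libraries; the OXPHOS genes sit between 58.4% and 70.9%, all genes between 6.61% and 23.2%.

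Along the first 50 nt the score was highest on the start itself. Summed over the members, position 0 scored 686 ± 52.4 (SD, n = 3) in U87, 761 ± 76 (SD, n = 3) in U87-R and 1348 ± 19.5 (SD, n = 2) with STM2457, from 19, 22 and 26 genes. At 5 nt the sums were 240 ± 24.3, 290 ± 14.5 and 432 ± 8.57, and at 10 nt 5.32 ± 6.52, 14.6 ± 14.9 and 33.1 ± 11.7 (SD, with the same n). The profile had lower peaks further on. One at 21 nt scored 109 ± 20.6, 147 ± 16.1 and 271 ± 9.28 (SD, with the same n), from 8, 8 and 7 genes. Another at 38 nt came from 5, 4 and 5 genes.

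**Figure D2:**
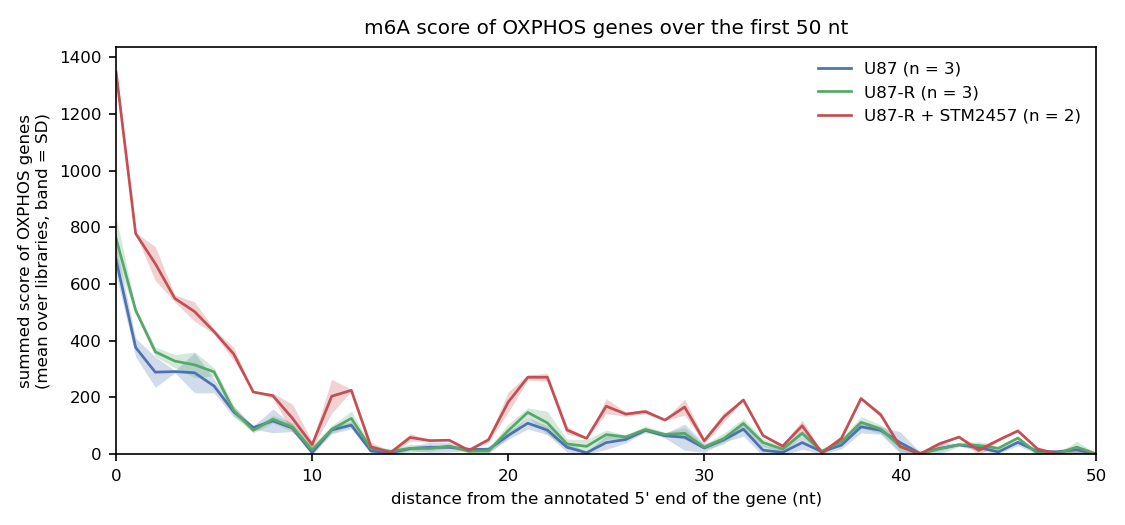
Summed score of the nuclear OXPHOS genes (y axis, no unit) by distance from the annotated 5′ end in nt (x axis). Lines are means over 3 U87, 3 U87-R and 2 U87-R + STM2457 libraries and bands are SD; the treated line starts at 1348 and the untreated ones at 686 and 761.

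The first comparison asks what METTL3 inhibition does to the m6A signal of resistant cells. The members' summed score was higher with STM2457 and that of all genes together was lower. The members' summed score was 8088, 8120 and 7672 in the U87-R libraries and 12348 and 12375 in the treated ones, whereas all genes together averaged 2891724 ± 392400 (SD, n = 3) and 1778836 ± 48206 (SD, n = 2). Over whole genes, 24 of the 62 tested members rose and 5 fell at an adjusted p under 0.05 in limma, and 33 did not pass. Among all 10586 genes tested, 6.27% rose and 38.1% fell. The median change was 0.82 in the members and -0.68 over all genes, on the log2(sum + 1) scale. Of the 24 called higher, 8 reached the filter on low sums (10 in at least 2 libraries) only with a treated library, and so had to differ: ATP5MC1, ATP5ME, ATP5MK, COX5A, NDUFA3, NDUFB1, NDUFB9 and UQCRB. The adjusted p-values given for them below come from genes selected in this way. Where every untreated library is at 0, here and in the zones below, those zeros show no spread. Such p-values therefore reflect little of how libraries vary. Among the 54 members that reached it on untreated libraries alone 16 were higher and 5 lower, against 4.03% and 39.8% of 10130 genes. Without genes listed at 0 in a whole group, the medians were 0.78 over 54 members and -0.65 over 10023 genes. Of the 5 complexes, complex I had 10 higher and 2 lower of 37 genes, of which 8 were not tested. Complex II had 2 and 0 of 4, all tested, and complex III 2 and 2 of 10, with 4 not tested. Complex IV had 5 and 1 of 17, with 7 not tested, and complex V 5 and 0 of 18, with 5 not tested.

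Libraries were not scaled to each other in these counts, and the split of the calls depends on that choice. Centring each library on its median moved the median change of all genes to -0.12 and gave 39 members higher and 3 lower, against 15.4% and 24.2% of all genes. Dividing by library totals gave 40 and 2, against 17.9% and 21.2%. All 24 members called higher remained so under both scalings, and of the 5 called lower 3 and 2 remained. With 2 treated libraries, each weighs heavily: 14 members were higher without treated replicate 1 (2.54% of all genes) and 15 without treated replicate 2 (2.75% of all genes), where the remaining library is taken to vary like the others.

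Complex I takes electrons from NADH through a chain of iron-sulphur clusters. NDUFS8, one of its iron-sulphur subunits, summed to 129, 150 and 118 in U87-R and to 379 and 347 with STM2457, 2.75 times the mean (change on the log2(sum + 1) scale 1.46, SE 0.25, adjusted p 0.00167). NDUFS1, its largest iron-sulphur subunit, summed to 212, 163 and 162 and then to 314 and 327 (0.84, SE 0.20, adjusted p 0.00971). In both genes the treated libraries lay above all untreated ones. NDUFA13 summed to 258, 246 and 248 in U87-R and to 481 and 469 with STM2457 (0.92, SE 0.17, adjusted p 0.00222). NDUFS4 and NDUFS6, accessory subunits of the NADH-oxidising arm, were also called higher, at 2.07 and 1.73 times their U87-R means. NDUFS4 no longer passed without U87-R replicate 3 (1.04, adjusted p 0.0645) or either treated replicate (1.05 and 1.03, adjusted p 0.0757 and 0.0746), and NDUFS6 without any single library other than U87 replicate 3 (adjusted p between 0.055 and 0.208). NDUFA2, an accessory subunit of the same arm, summed to 181, 208 and 180 and then to 322 and 285 (0.68, SE 0.19, adjusted p 0.0169), a call lost without U87-R replicate 3 (0.64, adjusted p 0.0568) and without treated replicate 1 (0.59, adjusted p 0.0661).

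A further group of complex I genes was listed in the treated libraries almost alone. NDUFB9, an accessory subunit of the membrane arm, was listed at 0 in 5 untreated libraries, at 3.20 in U87-R replicate 2, and at 134 and 98.1 with STM2457 (adjusted p 0.000543). NDUFA3 was listed at 0 in all 6 untreated libraries and at 23.9 and 25.6 with STM2457 (adjusted p 0.000506), and NDUFB1 likewise at 0 and then at 18.9 and 22.5 (adjusted p 0.000647). Among the 68 members with a called base, 8 (11.8%) were listed in both treated libraries and in no untreated one: ATP5MC1, ATP5ME, ATP5MK, COX5A, NDUFA3, NDUFA5, NDUFB1 and UQCRB. The same held for 166 of 13140 genes (1.26%).

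The lower calls of complex I were NDUFV3 and NDUFA6. NDUFV3, an accessory subunit of the NADH-oxidising arm, summed to 115, 132 and 115 in U87, to 234, 110 and 193 in U87-R and to 27.6 and 46.0 with STM2457 (fell by 2.23 on the log2 scale, SE 0.40, adjusted p 0.00211). All of its called bases lay over 50 nt from the 5′ end. NDUFA6, which belongs to a family of small mitochondrial proteins with a shared LYR motif, was low throughout, at 22.6, 11.9 and 5.79 in U87-R, and was listed at 0 in both treated libraries (adjusted p 0.00713). The remaining 17 tested genes of complex I did not pass.

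Complex II, succinate dehydrogenase, links the citric acid cycle to the electron chain. SDHC, a membrane anchor, summed to 45.5, 32.3 and 33.8 in U87-R and to 125 and 155 with STM2457, 3.76 times the mean (1.89, SE 0.44, adjusted p 0.00807). SDHB, the iron-sulphur subunit, summed to 38.6, 51.5 and 71.4 and then to 119 and 139 (1.28, SE 0.43, adjusted p 0.0366). The call of SDHB was lost without U87-R replicate 1 (1.07, adjusted p 0.0844), U87-R replicate 2 (1.27, adjusted p 0.054), treated replicate 1 (1.40, adjusted p 0.111) or treated replicate 2 (1.17, adjusted p 0.162). The other two genes did not pass: SDHA, the flavoprotein that oxidises succinate, stood at 17.4 ± 15.2 (SD, n = 3) and 63.4 ± 12.9 (SD, n = 2), and SDHD, the second anchor, at 54.3 ± 8.13 (SD, n = 3) and 137 ± 21.0 (SD, n = 2). SDHD passed without U87 replicate 1 (1.32, adjusted p 0.036).

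Complex III passes electrons from ubiquinol to cytochrome c, and its genes moved in both directions. UQCRB, a small subunit near the ubiquinone site, was listed at 0 in all 6 untreated libraries and at 160 and 101 with STM2457 (adjusted p 0.000118). Its strand came from its called bases, which all lay more than 2 kb from its 5′ end. UQCRQ, another small subunit, summed to 237, 261 and 178 in U87-R and to 393 and 402 with STM2457 (0.84, SE 0.24, adjusted p 0.0223). That call was lost without U87-R replicate 3 (0.68, adjusted p 0.0731), treated replicate 1 (0.85, adjusted p 0.102) or treated replicate 2 (0.82, adjusted p 0.106). The Rieske iron-sulphur protein UQCRFS1 summed to 175, 121 and 103 and then to 73.6 and 35.3 (fell by 1.33, SE 0.45, adjusted p 0.0404). It no longer passed without treated replicate 2 (fell by 0.81, adjusted p 0.273), without any one of the U87-R replicates (adjusted p 0.113, 0.0573 and 0.0551), without U87 replicate 3 (adjusted p 0.0585) or under either scaling (fell by 0.77 and 0.65). UQCR10, a small subunit, summed to 524, 407 and 403 and then to 248 and 296 (fell by 0.70, SE 0.18, adjusted p 0.0129), a change that was near 0 under either scaling (fell by 0.14 and 0.01) and did not pass without treated replicate 1 (fell by 0.57, adjusted p 0.0907). UQCR11 did not pass over the whole gene, at 363 ± 51.4 (SD, n = 3) and 447 ± 46.3 (SD, n = 2), with a change of 0.30. It passed when centred on the median (0.86, adjusted p 0.00185) or divided by library totals (0.99, adjusted p 0.000579). CYC1, cytochrome c1, had no known strand and no called base on either strand of its span.

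Complex IV, cytochrome c oxidase, reduces oxygen. COX6A1 had the highest sum of all members in U87, at 485, 593 and 595, with 551, 552 and 577 in U87-R, then 770 and 823 with STM2457 (0.51, SE 0.14, adjusted p 0.0178). Without treated replicate 1 or treated replicate 2 the change was 0.55 and 0.46 and no longer passed (adjusted p 0.0505 and 0.0814). COX5B summed to 130, 133 and 149 and then to 262 and 267, and COX6C to 238, 165 and 188 and then to 352 and 332, and both passed (adjusted p 0.0084 and 0.0212). COX6C did not pass without U87-R replicate 3 (0.78, adjusted p 0.0609) or either treated replicate (0.76 and 0.85, adjusted p 0.11 and 0.0793). COX5A was listed at 0 in all untreated libraries and at 31.5 and 19.9 with STM2457 (adjusted p 0.000543). COX7B summed to 122, 66.7 and 129 and then to 272 and 205 (1.21, SE 0.36, adjusted p 0.0236), a call lost without treated replicate 1 (1.01, adjusted p 0.172) or treated replicate 2 (1.41, adjusted p 0.0693). COX8A, among the 5 members with the highest sums in U87, stood at 453 ± 75.9 (SD, n = 3) and 590 ± 41.5 (SD, n = 2) and did not pass. It passed when centred on the median (0.95, adjusted p 0.0115) or divided by library totals (1.08, adjusted p 0.00573). COX7A2L, a homologue of a complex IV subunit that tethers it to complex III in supercomplexes, summed to 334, 310 and 441 and then to 152 in both treated libraries (fell by 1.23, SE 0.24, adjusted p 0.00376). Divided by library totals, COX7A2L fell by 0.54 and did not pass (adjusted p 0.0678).

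Complex V, ATP synthase, had 5 genes higher and none lower of 13 tested. ATP5F1A, the α subunit of its catalytic head, summed to 182, 164 and 186 in U87-R and to 293 and 266 with STM2457 (0.65, SE 0.22, adjusted p 0.0383). That call was lost without U87 replicate 3 (adjusted p 0.0532), any one of the U87-R replicates (adjusted p 0.0623, 0.0634 and 0.0784) or either treated replicate (0.58 and 0.72, adjusted p 0.133 and 0.0712). ATP5MF, in the membrane part, summed to 269, 295 and 305 and then to 535 and 542 (0.90, SE 0.17, adjusted p 0.00274). ATP5MC1, which encodes the c subunit of the rotating ring, was listed at 0 in all 6 untreated libraries and at 61.0 and 64.5 with STM2457 (adjusted p 0.000183). ATP5ME and ATP5MK, small subunits of the membrane part, were also listed at 0 in all untreated libraries, and at 46.9 and 45.9 and at 99.5 and 36.7 with STM2457 (adjusted p 0.000249 and 0.000308). ATP5PF, the coupling factor in the stalk, did not pass over the whole gene, with 231 ± 47.3 (SD, n = 3) and 219 ± 19.4 (SD, n = 2), and neither did ATP5MJ, with 91.5 ± 17.0 and 47.8 ± 3.24.

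**Figure D3:**
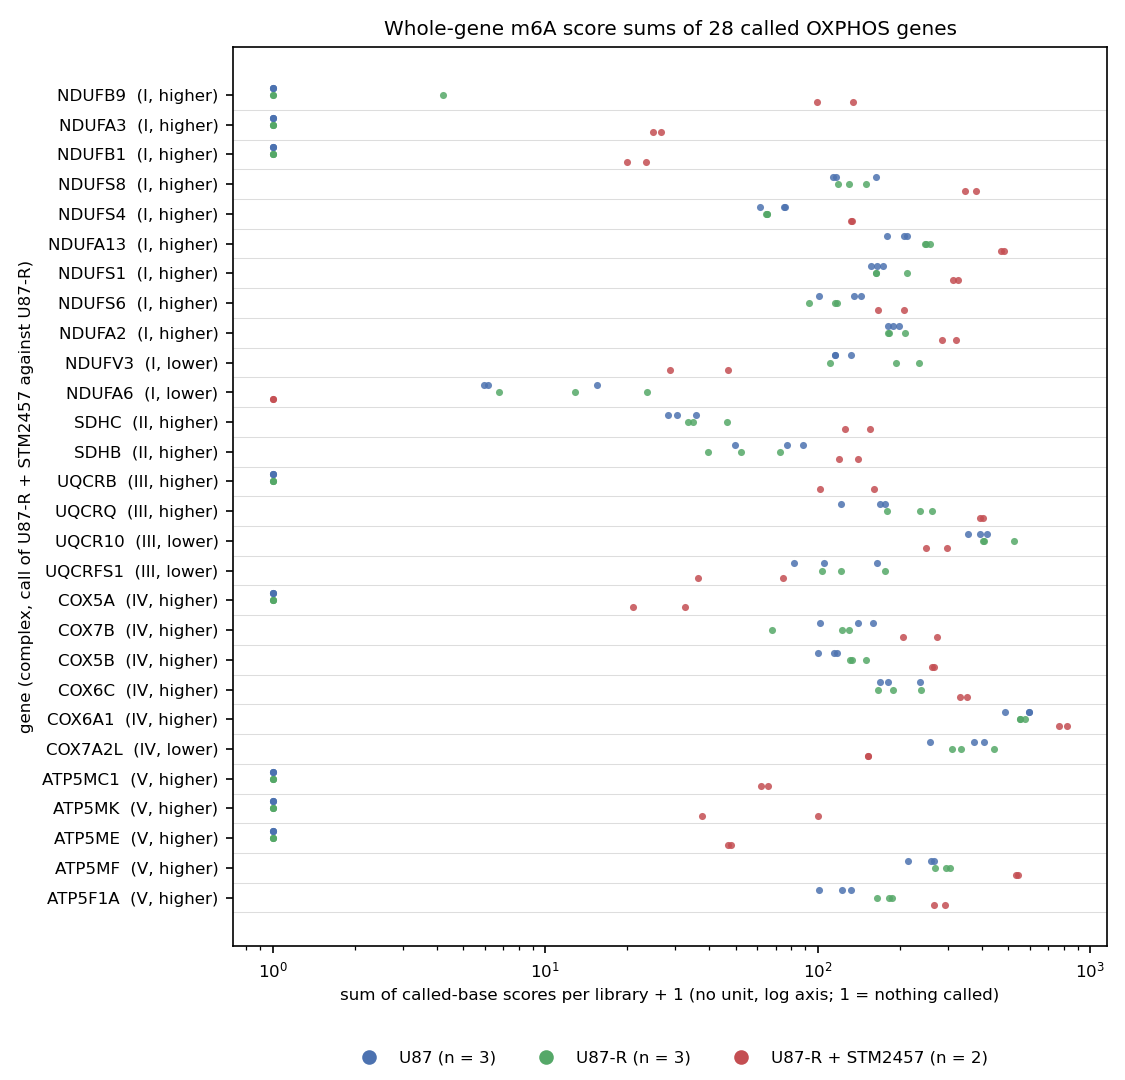
Sum of called-base scores plus 1 in each library (x axis, log scale, no unit) for 28 nuclear OXPHOS genes called over the whole gene, grouped by complex (y axis). Points are libraries; those at 1 had no called base, as in UQCRB and ATP5MC1, where only the treated libraries, at 160 and 101 and at 61.0 and 64.5, lie to the right.

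Within 50 nt of the 5′ end, 23 of 48 tested members rose and 0 fell, against 22.7% and 0.785% of 4202 genes. At an unadjusted p under 0.05 in limma, 25 members were higher and 0 lower, as were 1575 and 54 of all genes. Centring on the median gave 33 members higher and 0 lower, against 48.7% and 0.524% of all genes, and library totals gave 34 and 0, against 52.5% and 0.547%. The median change was 0.91 in the members and 1.06 over all genes, so the members' median was the lower of the 2, which was not tested. Without treated replicate 1, and likewise without treated replicate 2, 13 members passed, against 10.1% and 10.3% of all genes. Of the 23, 8 reached the filter only with a treated library and so had to differ: ATP5MC1, ATP5MK, ATP5PF, COX5A, NDUFA3, NDUFAB1, NDUFB1 and NDUFB9. Among the 39 members that reached it without one, 15 were higher, against 14.1% of 3284 genes. Of those 8 all but NDUFB9 were listed at 0 here in every untreated library, and such zeros show no spread, so small p-values are no measure of replicate variation. NDUFAB1, the mitochondrial acyl carrier protein and a subunit of complex I, was listed at 134 and 65.5 with STM2457 (adjusted p 7.32e-06), and ATP5PF at 33.3 and 21.8 (adjusted p 1.87e-06). With a zone of 200 nt the change of NDUFAB1 was 1.82 and did not pass (adjusted p 0.354). The zone held the whole sum of ATP5MC1, ATP5MK, COX5A, NDUFA3 and NDUFB1, and of NDUFB9 it held 83.5 and 62.9. Among genes with signal in every library, UQCR11 rose from 267, 259 and 213 in U87-R to 377 and 416 (0.69, SE 0.16, adjusted p 0.0233) and COX6A1 from 423, 450 and 464 to 561 and 632 (0.42, SE 0.11, adjusted p 0.0383). UQCR11 no longer passed without U87-R replicate 3 (0.59, adjusted p 0.0565), treated replicate 1 (0.76, adjusted p 0.11) or treated replicate 2 (0.62, adjusted p 0.164), and COX6A1 without any one of the U87-R or treated replicates (adjusted p between 0.0599 and 0.255).

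Base by base, the start-proximal signal persisted with STM2457. Of 95 member bases in this zone that scored 10 or more in each of the 3 U87-R libraries, 0 were missing from both treated libraries, 93.7% stayed at 10 or more in both, and 81.1% scored above every U87-R library in both. Over all genes, 1.06% of 4040 such bases were missing, 92.8% were kept and 66.5% scored higher in both. Neighbouring bases of 1 gene share fragments and are not independent.

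Beyond 50 nt the members split. Of 41 tested, 14 rose and 9 fell, against 5.18% and 51.0% of 9951 genes, and the median change was 0.68 against -1.14. Centring on the median gave 20 higher and 5 lower, against 10.7% and 36.8% of all genes, and library totals gave 20 and 4, against 12.3% and 33.2% of all genes. Without treated replicate 1, 9 rose and 6 fell, against 2.79% and 39.0% of all genes, and without U87-R replicate 1, 6 fell, against 43.2%. Of the 14 higher, 11 reached the filter in this zone only with a treated library and so had to differ, those named next among them except NDUFB10. Among the 29 members that reached it without one, 3 were higher and 9 lower, against 2.7% and 53.3% of 9521 genes. NDUFS8 was listed at 0 beyond 50 nt in all 6 untreated libraries and at 133 and 116 with STM2457 (adjusted p 5.36e-05), from bases 1466 to 1493 nt from its 5′ end. The bases of UQCRB and ATP5ME, given above, were all in this zone, and NDUFB9 (50.9 and 35.2), ATP5MF (25.5 and 35.2) and NDUFS5 (22.0 and 43.5) were at 0 in all untreated libraries and listed in both treated ones. NDUFB10 was at 0 in U87-R and at 57.3 and 40.9 with STM2457 (adjusted p 0.00358), and at 0, 15.9 and 11.2 in U87. UQCRQ was at 8.51, 7.79 and 0 in U87-R and at 109 and 101 with STM2457, from bases 223 to 254 nt from the start (adjusted p 0.0108). Without treated replicate 1 or treated replicate 2 UQCRQ did not pass (adjusted p 0.0717 and 0.0639).

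Several members lost signal close to their 3′ end. NDUFB7, an accessory subunit of complex I, summed to 79.3, 69.4 and 65.2 beyond 50 nt in U87-R and to 11.9 in both treated libraries (fell by 2.48, SE 0.42, adjusted p 0.0013). Its bases 31, 88 and 108 nt from the annotated 3′ end were called in neither treated library. NDUFA2 went from 39.2, 18.8 and 21.2 to 4.05 and 0 (fell by 3.54, SE 0.84, adjusted p 0.00692), and lost the bases 250 and 289 nt from its 3′ end. With a zone of 20 nt, which moves its bases at 21, 22 and 39 nt from one sum to the other, the change of NDUFA2 beyond it was 0.53 and did not pass. ATP5MJ, a small subunit of complex V, summed to 111, 82.6 and 80.7 in U87-R and to 0 and 45.5 with STM2457 (fell by 3.75, SE 1.31, adjusted p 0.0373), and its 4 bases 64 to 94 nt from the 3′ end were called in neither treated library. The call of ATP5MJ held only without treated replicate 2 and was lost without any other library (adjusted p between 0.0532 and 0.136), and its change was -0.98 without treated replicate 1 and -6.52 without treated replicate 2. UQCR11 went from 155, 70.4 and 125 to 36.9 and 63.7 (fell by 1.18, SE 0.43, adjusted p 0.043), a call lost without any one library other than U87-R replicate 2 (adjusted p between 0.051 and 0.261) and under either scaling. In UQCR11 the strongest base of this zone in U87-R lay further in, 835 nt from the 3′ end. Its mean went from 57.5 in U87-R to 17.1 with STM2457, and it was still called in both treated libraries. COX6A1 did not pass in this zone, at 114 ± 13.4 (SD, n = 3) and 200 ± 12.9 (SD, n = 2), yet its bases changed place. Those 67 to 160 nt from the 3′ end, with U87-R means of up to 30.6, were called in neither treated library, and 7 bases 263 to 277 nt from the 5′ end, called in no untreated library, scored at least 10 in both treated ones, with means of up to 28.9.

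Over the members, 14 of 58 bases beyond 50 nt (24.1%) that scored 10 or more in every U87-R library were missing from both treated libraries, against 30.4% of 39121 bases in all genes. The order turned when bases near any annotated start were left out, with 14 of 41 (34.1%) against 31.3%. Of the 11 bases within 500 nt of a 3′ end, which lay in 5 genes, 9 were missing (81.8%), against 39.9% of 3905 in all genes. Further from the 3′ end it was 5 of 47 (10.6%), against 29.3% of 35216. In the other direction, 71 member bases beyond 50 nt scored at least 10 in both treated libraries, and 25 of these (35.2%) were called in none of the 6 untreated libraries, against 6.82% of 24232 bases in all genes. The 25 bases lay in 10 genes, with 7 in COX6A1, 4 in UQCRB and 3 in NDUFS8, so they stand for far fewer independent places. The shares were not tested.

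**Figure D4:**
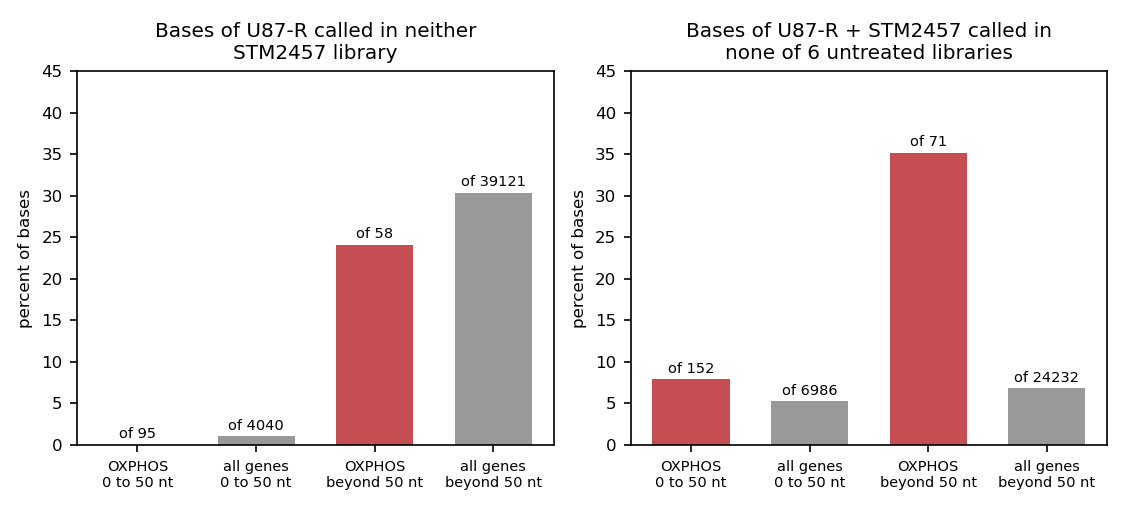
Left, percent of bases scoring 10 or more in each of the 3 U87-R libraries that were called in neither treated library; right, percent of bases scoring as high in both treated libraries that were called in none of 6 untreated ones. Red bars are nuclear OXPHOS genes and grey bars all genes, by distance from the 5′ end, with the number of bases above each; the largest gap is on the right, 35.2% of 71 against 6.82% of 24232.

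The test of the difference between the zones asked whether a gene's 5′ zone changed more than the rest. It was called for 11 of 41 members: more in the 5′ zone for ATP5PF, NDUFA2, NDUFAB1 and UQCR11, and less for ATP5MF, COX6C, NDUFB10, NDUFS4, NDUFS5, NDUFS8 and UQCRQ. A gene entered with a called base in each zone in any library, treated ones included. ATP5PF and NDUFAB1 within 50 nt, and ATP5MF, NDUFS5 and NDUFS8 beyond it, were at 0 in every untreated library. NDUFB10 was at 0 beyond 50 nt in U87-R. Those zones could only rise, so these calls follow in part from how the genes entered. Among 5759 genes the 5′ zone changed more in 44.6% and less in 1.82%. Without treated replicate 1, NDUFS4, NDUFB10 and NDUFAB1 did not pass (adjusted p 0.0899, 0.0561 and 0.0648). UQCRQ did not pass without U87-R replicate 3 (adjusted p 0.0695) or either treated replicate (adjusted p 0.122 and 0.108), and UQCR11 did not without U87 replicate 1, U87-R replicate 1 or 3, or either treated replicate (adjusted p between 0.0518 and 0.133). The median difference was 0.07 in the members and 2.44 over all genes. In 27 members that could be tested in both zones, the plot of one change against the other shows the 7 genes in a row at the right, where the change beyond 50 nt was between 4.25 and 6.97 and that within 50 nt between 0.33 and 0.85. Those sizes start from sums at or near 0 and depend on the 1 added before the logarithm.

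**Figure D5:**
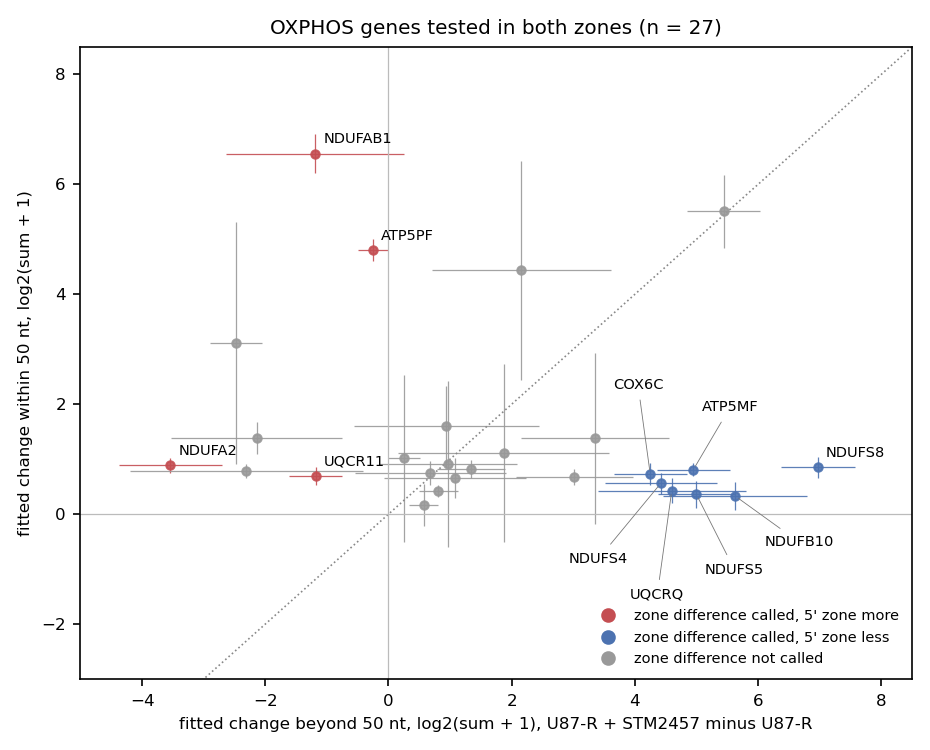
Fitted change with STM2457 on the log2(sum + 1) scale beyond 50 nt (x axis) and within 50 nt of the 5′ end (y axis) for the 27 members tested in both zones; bars are standard errors and the dotted line is equal change. Red points had a called zone difference with more change in the 5′ zone (4 genes), blue points with less (7 genes), and grey points none.

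The second comparison, U87-R against U87, asks whether the resistant line differs. In limma 0 members passed over the whole gene or in either zone, against 1.28% of all genes over the whole gene, 1.00% within 50 nt and 1.27% beyond it. Over the whole gene the median change was 0.26 in the members and 0.12 over all genes. Over the whole gene 7 of 62 members had an unadjusted p under 0.05, 6 higher and 1 lower, as had 1322 of all genes. Within 50 nt 7 of 48 members had such a p, as had 569 of 4202 genes, and beyond it 5 of 41 members and 1115 of 9951 genes. The members' summed score was 5936, 7788 and 6542 in U87 and 8088, 8120 and 7672 in U87-R, so that the groups overlap. ATP5F1E, the ε subunit of ATP synthase, passed once U87 replicate 2 was left out (6.35, SE 0.61, adjusted p 0.0054) or both untreated replicates 2 (6.17, adjusted p 0.0177). Without U87 replicate 2, ATP5F1E and ATP5PD also passed within 50 nt (adjusted p 0.00508 and 0.0479) and ATP5PB and COX7C beyond it (adjusted p 0.0312 and 0.0316). ATP5F1E was listed at 0, 69.5 and 0 in U87 and at 60.2, 102 and 83.9 in U87-R. Its calls thus came from leaving out the only U87 library in which it was listed. The zeros that remained show no spread, and the size of the change depends on the 1 added before the logarithm. SDHA leaned the other way, at 60.0, 116 and 61.3 in U87 and 27.6, 24.7 and 0 in U87-R, and did not pass (fell by 3.08, SE 1.18, adjusted p 0.332). Beyond a zone of 20 nt SDHA did pass (fell by 4.54, adjusted p 0.0437).

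Some members were listed in replicate 2 of the untreated lines and not beside it. COX6B1, a small subunit of complex IV, stood at 38.4 in U87 replicate 2, at 74.8 in U87-R replicate 2 and at 0 in the other 4 untreated libraries, and at 131 and 95.7 with STM2457. UQCRH, the hinge protein of complex III, stood at 21.4 and 26.2 in those 2 libraries, at 0 in the other 4, and at 93.0 and 46.6 with STM2457. ATP5PO, in the stalk of complex V, stood at 43.9 and 112 in them and at most at 0.329 in the others, and at 180 and 140 with STM2457. None of these genes passed in either comparison. They were picked after their values were seen, as were NDUFA13, NDUFS1, NDUFS4, NDUFS6, COX5B, COX6C, ATP5F1A, ATP5F1E, ATP5PD, ATP5PB, COX7C and NDUFA8 above. Whether the depth of those libraries differs was not tested.

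The authors' deposited lists of reproducible sites, which join the libraries of a group and have no replicate error, held 37 sites in the members for U87, 46 for U87-R and 59 for STM2457, while the whole lists had 33396, 35207 and 12791 sites. Members with a site numbered 21, 23 and 36. Sites within 50 nt of the 5′ end were 24, 25 and 47, and those beyond were 13, 21 and 12. The U87-R and STM2457 lists shared 21 sites in the 5′ zone (84% of U87-R, 44.7% of STM2457) and 8 beyond it (38.1% and 66.7%). For comparison, the U87 and U87-R lists shared 20 in the 5′ zone (83.3% of U87, 80% of U87-R) and 12 beyond it (92.3% and 57.1%). The overlap of the lists over all genes is not given here, so these shares are not particular to the members. The authors' deposited peaks in the members numbered 87, 91 and 143.

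Other genes of the pathway were counted over the whole gene, where 6.27% of all genes rose and 38.1% fell with STM2457. Of 59 assembly factors, 47 were tested, 3 rose and 18 fell, which is near those shares, with a median change of -0.58 against -0.68 over all genes. ATPAF1, a chaperone for the head of complex V, went from 122, 71.6 and 97.8 in U87-R to 0 in both treated libraries (adjusted p 9.95e-05), and SDHAF3, an assembly factor of complex II, from 25.5, 78.7 and 13.6 to 0 in both (adjusted p 0.00278). COX15, which makes the heme of complex IV, went from 63.7, 76.2 and 58.2 to 0 and 6.94 (adjusted p 0.00382). The 3 that rose were COX16, TTC19 and TMEM126B, the last from 285, 194 and 200 to 339 and 362 (0.65, SE 0.23, adjusted p 0.0433). Of 13 nuclear regulators of mitochondrial genes, 12 were tested, 0 rose and 6 fell. YY1, a transcription factor, went from 760, 506 and 652 to 153 and 206 (fell by 1.82, SE 0.20, adjusted p 0.000244), and GABPB1, a subunit of the ETS-family factor GABP, from 652, 537 and 478 to 208 and 262 (fell by 1.24, SE 0.21, adjusted p 0.00183). TFB1M, a methyltransferase of mitochondrial ribosomal RNA, fell by 1.34 (SE 0.46, adjusted p 0.0424). Of 9 companion factors 8 were tested, ETFB rose and CHCHD4 fell. Of the 13 subunits encoded by the mitochondrial genome 11 were tested and 2 rose: COX2, from 69.7, 33.1 and 66.7 to 141 and 165 (1.49, SE 0.46, adjusted p 0.0278), and COX3, from 199, 85.1 and 160 to 315 and 388 (1.32, SE 0.36, adjusted p 0.0163). In U87-R against U87, none of these 4 lists had a called gene.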

How the data were processed

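Per the labels' protocols, m6A-eCLIP crosslinked an antibody against m6A to fragments of polyA RNA. STAR, cutadapt and UMI-tools are the tools, and hg38 the build, named per the submitters' processing notes. Their versions, the callers of bases and peaks, and any normalization: not given in the sources used here.

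For each eCLIP library the authors deposited called bases with a score, which the values show to be the smallest of 4 scores listed beside it, by a formula not given in the sources used here. Any base not listed has no value, and the lists hold no counts or coverage, so no interval or detection limit could be given and the depth is unknown. The authors' deposited lists of reproducible sites and peaks give for each entry the fraction of libraries that passed, and a combined score; only their positions were used.

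Called bases (452349 in all) were assigned by position and strand to RefSeq genes on GRCh38.p14, and 396236 (87.6%) went to 1 gene. Strand came from the RefSeq promoter table, else from at least 80% of at least 5 bases lying in that gene's span alone. In the 47 members where both sources were known they gave the same strand. Distances are genomic, introns included, from the end of the annotated span. Readthrough entries were left out, and protein-coding genes were served first. Of 86 single members 69 matched the promoter table.

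Scores were summed per gene and library, over the whole gene, within 50 nt of the 5′ end and beyond. Genes whose sum reached 10 in 2 or more libraries were tested on log2(sum + 1) with limma 3.58.1 (R 4.3.3), a mean-variance trend, 3 group means over 8 libraries and Benjamini-Hochberg adjustment over all genes tested. The difference between zones was tested on the difference of the 2 log2 values. The script was tested on simulated data. Changes on this scale understate those of low sums. Both comparisons share the U87-R libraries.

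The main fit did not pair libraries, and the labels give no pairing. An alternative took the replicate number as a block over all libraries. Between U87 and U87-R, deviations from the group means correlated above 0.1 for each number (0.102, 0.315 and 0.113 for 1, 2 and 3). Numbers 1 and 3 are not distinct in this: U87 replicate 1 with U87-R replicate 3 gave 0.118, and U87 replicate 3 with U87-R replicate 1 gave 0.141. The numbers of U87-R and STM2457, which the block also ties, did not correlate (-0.020 and -0.022). Members named in the text are, per direction, up to 12 with the largest whole-gene change and up to 8 per zone, with UQCRB, the SDH genes, CYC1 and the 5 highest in U87, and others that the text marks. The members, lists and rules were chosen with earlier results of these data known. The values of 1 member are not reported here; the counts include it.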

Additional observations from a re-analysis of the deposited data

How the results depend on the processing

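With the sum replaced by the number of called bases, 11 members were higher over the whole gene and 7 within 50 nt of the 5′ end. Centred on the median, 39 were higher and 3 lower over the whole gene and 5 lower beyond 50 nt; with library totals these were 40, 2 and 4. Bases with a score of at least 10 gave 3 lower over the whole gene, against 33.7% of all genes. A zone of 20 nt gave 6 members whose change differed between the zones; the share over all genes is not given here for that count. Without U87-R replicate 3, 17 members were higher over the whole gene, against 4.43% of all genes, and 16 within 50 nt, against 16.9%. Leaving out 1 library at a time gave 14 to 25 members higher and 4 to 5 lower over the whole gene, 13 to 24 higher within 50 nt, 9 to 15 higher and 6 to 9 lower beyond it, 9 to 13 for the zone difference, and 0 to 1 called in U87-R against U87. That last count is for the whole gene only. The 1 was ATP5F1E without U87 replicate 2. It also passed without both untreated replicates 2 (1 member), an alternative chosen after seeing the data. Counts of STM2457 against U87-R stayed within 1.5 times there. In the zones further members passed between U87-R and U87, as given above. For the zone difference in limma, COX7C passed without U87 replicate 2 (-4.36, adjusted p 0.0284) and NDUFB10 without U87 replicate 1 (4.36, adjusted p 0.0447). With the replicate number as a block, 18 members were higher and 4 lower over the whole gene, against 5.13% and 32.9% of all genes. Within 50 nt 18 were higher, against 15.3% of all genes. Beyond it 12 were higher, against 4.73%, and 7 lower. In that setting 11 differed between the zones and 0 differed between U87-R and U87. Shares over all genes are not given here for the 7 lower or the 11. The block changed no other call among the named members than those of NDUFA2 (0.64), UQCRQ (0.67), UQCRFS1 (fell by 1.44) and UQCR11 beyond 50 nt (fell by 1.04). Of 1001 values of named members under an alternative, 905 kept direction and side of the threshold, 80 no longer passed, 12 newly passed and 4 turned direction without passing: by the number of bases COX7B was at -0.17 and NDUFA2 at -0.43, and beyond a zone of 20 nt NDUFA2 was at 0.53 and UQCR11 at 0.23. Why these differ was not tested. The other alternatives (log2(sum + 10), no filter, only the groups compared, a zone of 200 nt, any annotated start) kept every count within 1.5 times. Depth is unknown, scores cannot be turned into methylation levels, and 2 treated libraries limit the precision.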

Other observations

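Members without a known strand still held called bases in their spans, all on the minus strand. ATP5F1B, the catalytic β subunit of ATP synthase, had 3 bases that summed to 0, 7.58 and 6.41 in U87, to 0 in each U87-R library and to 38.7 and 45.8 with STM2457. ATP5MC3, another gene for the c subunit, had 4 bases that summed to 42.0, 66.3 and 34.8, to 67.1, 83.4 and 82.4 and to 66.3 and 88.3. ATP5MGL and UQCRHL, retrogene copies of ATP5MG and UQCRH, had 3 bases each, and UQCRHL stood at 16.1 and 25.1 with STM2457. CYC1, COX4I2, COX7A1 and NDUFB5 had none.

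RefSeq lists 186 pseudogenes named after the members, and 24 of them held 133 called bases. Reads of near-identical copies can be placed in either, so values of members with such copies are uncertain. Where alignment put shared reads was not tested.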
